A study of Sus scrofa with 9 samples.

Results

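The nuclear-encoded subunits of the mitochondrial respiratory chain were examined in the liver of Wujin pigs fed 3 levels of iron. Genes were taken by symbol, as those beginning with NDUFA, NDUFB, NDUFC, NDUFS, NDUFV, UQCR, COX4, COX5, COX6 or COX7, together with SDHA, SDHB, SDHC, SDHD, CYC1 and CYCS, and without the NDUFAF assembly factors. This rule found 53 of the 25918 genes in the table, with 39 in complex I, 4 in complex II, 2 in complex III, 7 in complex IV and CYCS, which encodes cytochrome c. A mean of at least 0.5 FPKM (fragments per kilobase of transcript, scaled to the mapped fragments of the library) over the 9 libraries was reached by 52 of the 53, and by 12584 genes in all.

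Liver RNA was sequenced from 9 Wujin piglets, each raised separately and each giving 1 library, with 3 animals per group picked at random. Feeding began at 35 days of age, with 5 days of pre-feeding and 30 days of formal feeding on a basic diet shared by all groups. The low-iron group (animals 2, 3 and 7) had 0 mg/kg of iron added, the control group (animals 4, 5 and 6) had 100 mg/kg as iron glycinate, and the high-iron group (animals 2, 7 and 8) had 200 mg/kg as iron glycinate. The numbers are those in the library labels, and libraries are named here by group and number, so that low-iron 7 and high-iron 7 are different animals. Males and females were both used in the study, and the sex of each animal was not used here. The basic diet itself contained iron by calculation, so the low-iron group had no added iron rather than none. The comparison asks how the iron content of the diet is reflected in the liver transcriptome, and only mRNA was measured, not protein, respiration or liver iron.

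The respiratory chain carries electrons from food to oxygen along the inner mitochondrial membrane. Complex I takes them from NADH and complex II from succinate, ubiquinone passes them to complex III, cytochrome c shuttles them to complex IV, and complex IV hands them to oxygen. Iron sits in the path itself, as iron-sulfur clusters in complexes I, II and III and as haem in complexes II, III and IV and in cytochrome c. The liver is rich in mitochondria, and most subunits are encoded in the nucleus while a core of complexes I, III and IV is encoded in mitochondrial DNA. The mitochondrial genes were not analysed here.

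Several subunits are named only by a LOC number in the annotation used and therefore fell outside the symbol rule. By product name these were 17 subunits of complexes III and IV, among them cytochrome c1, the Rieske protein and cytochrome c oxidase subunits 4, 5A, 7B and 8A. They are described as a separate group, found after the table was seen. Gene positions are given in Sscrofa11.1, the build used by the authors.

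The stretch of 120 bases before the annotated start is shown for the 4 genes whose groups separated most and for 2 examples of promoters with a match to motifs of the known regulators of these genes. The sequences were read from the RefSeq copy of Sscrofa11.1, 5′ to 3′ on the strand of the gene, and capitals mark GCGCANGCG (NRF1), CCGGAAG (ETS family, to which GABPA belongs) or AAGATGG (YY1), searched on both strands.
CYCS, chr18:47169801-47169920, plus strand: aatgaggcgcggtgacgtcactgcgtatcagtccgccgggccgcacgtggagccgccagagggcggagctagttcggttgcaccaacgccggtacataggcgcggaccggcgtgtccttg
NDUFA3, chr6:56021319-56021438, minus strand: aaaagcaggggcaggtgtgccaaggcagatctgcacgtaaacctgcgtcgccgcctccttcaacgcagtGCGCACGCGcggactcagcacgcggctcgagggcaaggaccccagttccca
NDUFA2, chr2:142361127-142361246, minus strand: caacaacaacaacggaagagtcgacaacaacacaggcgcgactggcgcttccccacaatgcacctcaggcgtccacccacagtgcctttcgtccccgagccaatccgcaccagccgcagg
NDUFV1, chr2:4964212-4964331, minus strand: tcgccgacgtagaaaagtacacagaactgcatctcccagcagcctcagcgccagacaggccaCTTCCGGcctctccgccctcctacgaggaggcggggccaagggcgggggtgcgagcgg
COX5B, chr3:56632108-56632227, minus strand: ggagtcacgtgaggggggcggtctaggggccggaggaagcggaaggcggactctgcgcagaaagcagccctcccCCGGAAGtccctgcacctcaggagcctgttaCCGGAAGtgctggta
NDUFB3, chr15:104747715-104747834, plus strand: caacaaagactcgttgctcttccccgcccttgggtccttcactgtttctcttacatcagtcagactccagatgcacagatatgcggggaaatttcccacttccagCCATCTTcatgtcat

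In the window from 250 bases before to 50 bases after the start, the NRF1 letters were found in 15 of 53 members (28.3%) against 12.0% of the numbered genes that passed the filter and 8.21% of all numbered genes. The ETS letters were found in 12 members (22.6%) against 15.9% of genes that passed, and the YY1 letters in 7 members (13.2%) against 5.97%. At least 1 of the 3 stood in 29 members (54.7%), against 29.4% of the genes that passed. The windows of CYCS and NDUFA2 held none of the 3, that of NDUFA3 held the NRF1 letters and that of NDUFV1 the ETS letters. The median GC content of the members' windows was 58.7%, against 61.7% for the genes that passed. A match is a description of letters only, and the annotated start may not be the start used in liver.

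Respiratory chain genes were abundant in every liver. The median member had a mean of 32.0 FPKM, against 4.86 FPKM for all genes tested. Levels per length differed most between complexes II and I. The 4 genes of complex II, succinate dehydrogenase, had a median of 109 FPKM, led by the iron-sulfur subunit SDHB at 167 FPKM, with the membrane anchor SDHC lowest at 91.1 FPKM. In complex I the median was 25.2 FPKM, from NDUFB1, an accessory subunit, at 1.81 FPKM up to NDUFA4 at 99.2 FPKM. The NDUFA4 protein, counted here by its symbol, is found with complex IV. Complex III had 31.9 FPKM of UQCR10 and 43.8 FPKM of UQCRB, both small subunits. Complex IV ran from 13.6 FPKM of COX7A1 to 107 FPKM of COX6A1, and CYCS stood at 39.8 FPKM. The members lay on 16 chromosomes, with 2 on the X chromosome (NDUFA1 and NDUFB11). Their transcripts were short, with a median of 734.5 bases against 3247 bases for the numbered genes tested, and 39 of the 52 tested members were under 1000 bases.

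**Figure D1:**
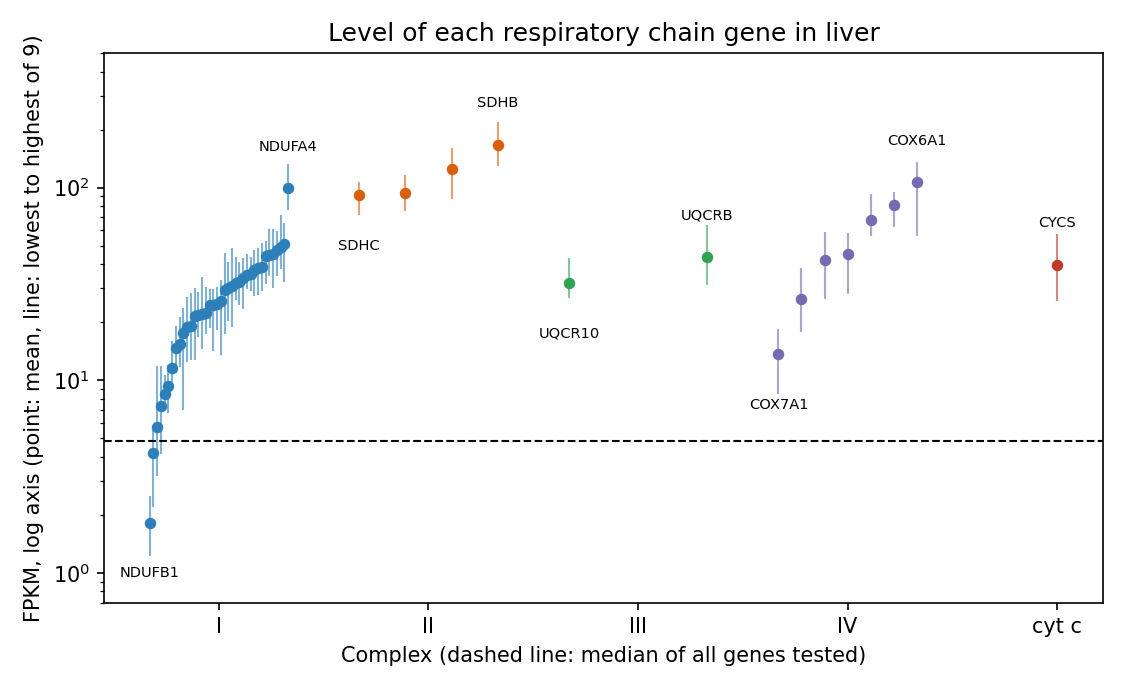
Mean FPKM of each of the 52 tested members (points, log axis) with the range over 9 libraries (lines), by complex on the x axis, and the highest and lowest member of each complex named. Complex II genes all lay above 90 FPKM, while NDUFB1 of complex I lay at 1.81 FPKM, below the 4.86 FPKM of the median gene tested (dashed line).

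Isoforms that depend on tissue or oxygen were unequal in level. NDUFA4L2, the hypoxia-inducible relative of NDUFA4, was the only member that did not pass the filter, at 0.0529, 0.617 and 0.268 FPKM in low-iron 2, 3 and 7, at 0.0733, 0.0180 and 0 FPKM in control 4, 5 and 6, and at 0.415, 0.0452 and 0.0388 FPKM in high-iron 2, 7 and 8. No group stood apart, and each value was far under that of NDUFA4. Cytochrome c oxidase subunit 4 isoform 1 (LOC100624067) ranged from 133 to 222 FPKM and isoform 2 (LOC110257420), the oxygen-dependent form, from 0.250 to 1.80 FPKM. COX6A1, the general form of subunit 6A, ranged from 56.3 to 136 FPKM, against 2.55 to 6.41 FPKM for the muscle form 6A2 (LOC100626250). Subunit 7B2, a testis form (LOC100517408), was listed at 0 in all 9 libraries, and subunit 6B2 (LOC110261055) in 8 of them. COX7A1, described in the annotation as the muscle and heart form of subunit 7A, was found at 8.49 to 18.4 FPKM, below COX7A2, the liver form, at 17.8 to 38.0 FPKM. The summed level of the 6 muscle markers in the table was at most 0.0819 FPKM in any library and MYH1, MYH2 and TNNT3 were at 0 in all 9. Of the 5 stellate cell and pericyte markers, ACTA2 had the highest level in every library, at 22.45 to 124.3 FPKM, and weighed most in their sum. Summed over the 5 markers of these cells, levels were 62.9 to 162 FPKM in the low-iron, 45.2 to 111 in the control and 51.0 to 108 in the high-iron group. The part of such cells in the COX7A1 level was not tested.

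The 9 libraries differed in the level of the whole chain, and they did so within groups as much as between them. Summed over the 53 members, low-iron 2, 3 and 7 had 2166, 1854 and 2657 FPKM, control 4, 5 and 6 had 1996, 1784 and 2247 FPKM, and high-iron 2, 7 and 8 had 1571, 2263 and 1925 FPKM. The group means were 2226 ± 405 FPKM in the low-iron, 2009 ± 232 in the control and 1920 ± 346 in the high-iron group (SD, n = 3). Low-iron 7 was the highest and high-iron 2 the lowest library, and the ranges of the 3 groups overlapped.

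This was seen gene by gene. Low-iron 7 held the highest value of 41 of the 52 tested members, namely 30 of 38 in complex I, 3 of 4 in complex II, both in complex III, 5 of 7 in complex IV, and CYCS. High-iron 2 held the lowest value of 27 members, among them all 4 genes of complex II and 20 of complex I, and control 5 held the lowest of 11. All 52 members were above their own 9-library mean in low-iron 7, and 1 of 52 was in high-iron 2. The median member deviated from its own mean by 0.09, -0.14 and 0.41 on the log2 scale in low-iron 2, 3 and 7, by -0.03, -0.17 and 0.15 in control 4, 5 and 6, and by -0.35, 0.21 and -0.05 in high-iron 2, 7 and 8. For all genes tested the same medians lay between -0.14 and 0.12. Taking the library's own median away lowered the spread of the members over the 9 libraries from a median SD of 0.28 to 0.18 (log2), and it did so in 52 of 52 members, partly because that median was made from the same genes. Over all genes tested the same step, with the median of all genes, went from 0.35 to 0.33. The drop was not particular to the members. With each list's own median, cytosolic ribosomal proteins went from 0.27 to 0.12 (76 of 76 genes smaller) and ATP synthase genes from 0.30 to 0.16 (14 of 16). Citric acid cycle enzymes went from 0.25 to 0.18 (12 of 13) and mitochondrial ribosomal proteins from 0.31 to 0.23 (60 of 75). SDHB followed the members' median most closely, with an SD of 0.216 that became 0.0398. CYCS and NDUFA3 hardly followed it, with SDs of 0.408 and 0.520 that became 0.401 and 0.478.

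**Figure D2:**
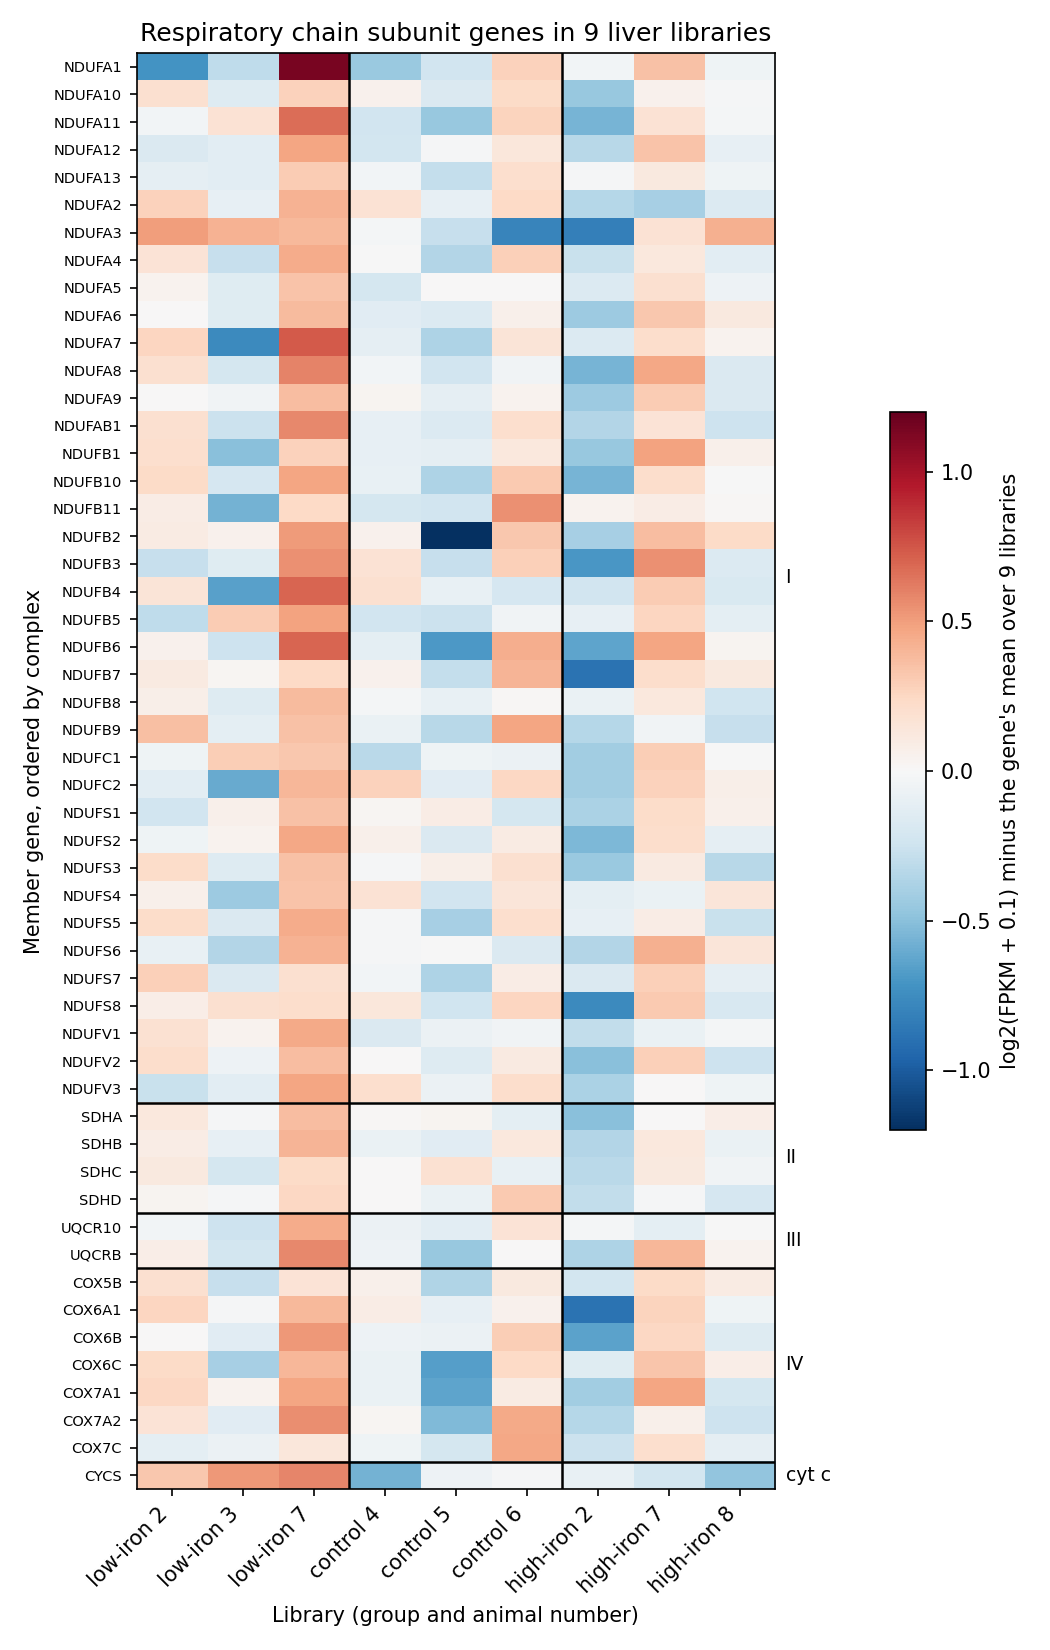
Deviation of log2(FPKM + 0.1) from each gene's own mean, for the 52 tested members (rows, by complex) in the 9 libraries (columns, by group), red above and blue below the mean. The column of low-iron 7 (median 0.41) has the highest median in every complex, and that of high-iron 2 (median -0.35) the lowest in complexes I and II. In complexes III and IV the lowest medians are those of control 5, at -0.29 and -0.36, against -0.20 and -0.34 in high-iron 2. The row of CYCS is above its mean in all 3 low-iron libraries.

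Several other lists of mitochondrial genes had their highest median in low-iron 7 and their lowest in high-iron 2. The 12 tested regulators of mitochondrial genes did not. Their highest median was 0.16 in low-iron 3 and their lowest -0.27 in control 6, with 0.14 in low-iron 7 and -0.05 in high-iron 2. The 16 genes of ATP synthase, which uses the proton gradient built by the chain, had median deviations of 0.05, -0.18 and 0.47 in the low-iron, -0.03, -0.16 and 0.16 in the control and -0.53, 0.24 and -0.06 in the high-iron libraries, in the order used above. For the 75 tested mitochondrial ribosomal proteins they were 0.35 in low-iron 7 and -0.37 in high-iron 2, and for the 13 citric acid cycle enzymes 0.33 and -0.42. The 76 cytosolic ribosomal proteins, which are not mitochondrial, had another order of libraries, with the highest median of 0.41 in control 6, the lowest of -0.41 in control 5, and 0.13 in low-iron 7. The 9 hepatocyte marker genes lay between -0.15 in control 4 and 0.22 in low-iron 3. In bulk liver, fewer cells of a type and less RNA per cell cannot be told apart.

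**Figure D3:**
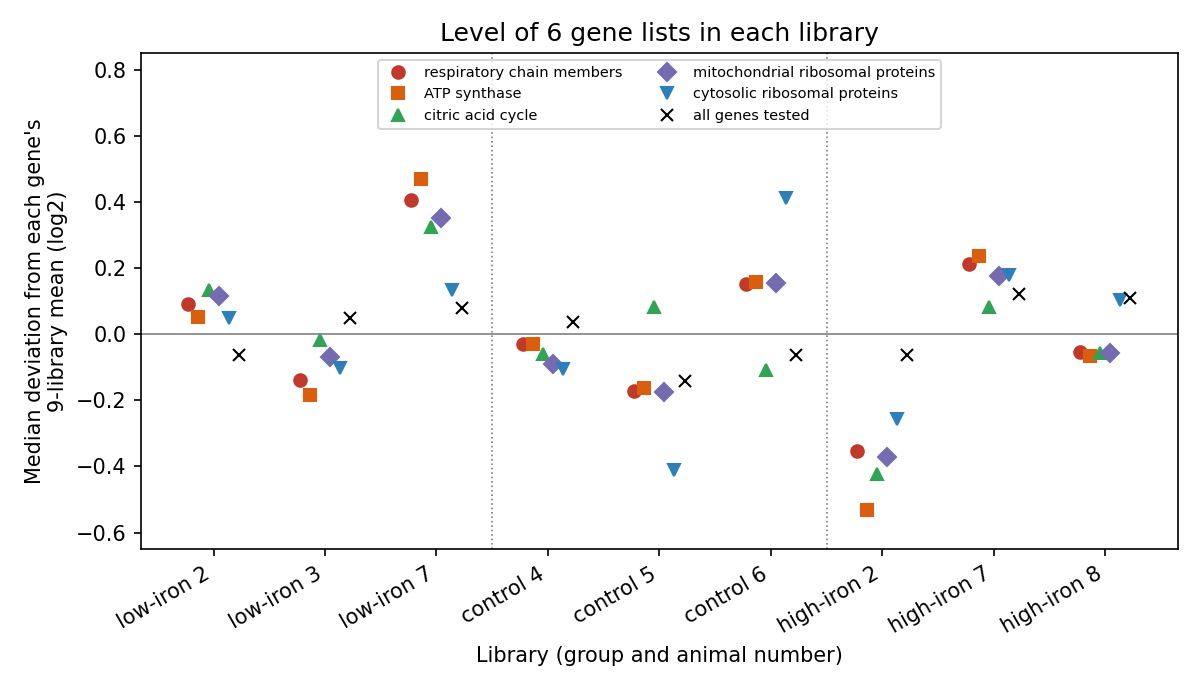
Median deviation (log2) from each gene's own 9-library mean for 6 gene lists, by library on the x axis and list by symbol. Respiratory chain members, ATP synthase, citric acid cycle and mitochondrial ribosomal proteins all peak in low-iron 7 and are lowest in high-iron 2, while cytosolic ribosomal proteins peak in control 6 at 0.41.

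Between the low-iron and control groups, 46 of 52 members were higher with low iron, but most differences were small. The median log2 fold change was 0.15, against 0.08 for all genes tested, of which 62.7% were higher. Fold changes were tested with limma on log2(FPKM + 0.1) over all 12584 genes, which slightly understates the change of low genes. No member reached a fold of 2 at p under 0.05, as 0.882% of all genes did, and no member or other gene (0%) passed a Benjamini-Hochberg adjusted p of 0.05. An unadjusted p under 0.05 was found for 2 members that were higher (CYCS and NDUFA3, against 2.92% of all genes) and for 0 that were lower (0.763% of all genes). For 3 members (CYCS, NDUFA3 and NDUFV1) all low-iron values lay above all control values, which was the case for 6.1% of all genes, and for 0 they lay below, as for 2.24% of all genes. These shares of 2 and 3 in 52 were near those of all genes. By complex, 33 of 38 members were higher in complex I (median 0.14), 4 of 4 in complex II (0.09), 2 of 2 in complex III (0.19) and 6 of 7 in complex IV (0.19).

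The count of higher members rested on 1 library. Without low-iron 7, 26 members were higher and 26 lower, with a median log2 fold change of 0.0036 against 0.05 for all genes. Without low-iron 3, 50 were higher and 2 lower, with a median of 0.27. Without control 5, 35 were higher, with a median of 0.07. Under median-of-ratios scaling between libraries, 36 of 52 (69.2%) were higher with a median of 0.07, and under quantile normalization 34 of 52 (65.4%) with a median of 0.06, while the median over all genes became -0.0028 and -0.0067.

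CYCS encodes cytochrome c, the haem protein that carries electrons from complex III to complex IV and that triggers apoptosis when released from mitochondria. It lies on chromosome 18 (47169921 to 47172212, plus strand) and had 48.0, 55.1 and 57.6 FPKM in low-iron 2, 3 and 7, 25.8, 36.7 and 38.1 FPKM in control 4, 5 and 6, and 36.0, 32.9 and 27.6 FPKM in high-iron 2, 7 and 8. All 3 low-iron livers were above all 6 others, while the control and high-iron values overlapped. The means were 53.6 ± 4.99, 33.5 ± 6.73 and 32.2 ± 4.24 FPKM (SD, n = 3). Low-iron exceeded control by 0.69 on the log2 scale (SE 0.20, unadjusted p = 0.00533, limma adjusted p = 1.00), and high-iron lay below low-iron by a log2 fold change of -0.74 (SE 0.20, unadjusted p = 0.00357, limma adjusted p = 0.573). High-iron against control gave -0.05 (SE 0.20, unadjusted p = 0.819 in limma). The exact permutation test of 3 against 3 libraries gave p = 0.1 (two-sided) for both low-iron comparisons, the smallest p it allows. Without low-iron 7 the log2 fold change against control was still 0.64 (unadjusted p = 0.0204 in limma), and it ranged from 0.51 to 0.79 over the alternative settings run. Its unadjusted p stayed under 0.05 in all of them but 1, for both low-iron comparisons. Read against the median member of each library, an alternative chosen after seeing the data, the differences were 0.56 and -0.55, with unadjusted limma p of 0.0509 and 0.0522. Another copy annotated as cytochrome c (LOC100522842) had at most 0.678 FPKM in any library, and reads of near-identical copies could not be told apart from those of CYCS here. The erythroid markers were also higher in the low-iron group, 3 of 3 tested with a median log2 fold change of 0.97 against control (0 of 3 at p under 0.05), with summed levels of 478 to 2453 FPKM in the low-iron, 212 to 1451 in the control and 351 to 840 in the high-iron group. HBB, a haemoglobin chain, had 1409, 470 and 2433 FPKM in low-iron 2, 3 and 7. It had 209, 671 and 1434 FPKM in control 4, 5 and 6, and 828, 527 and 348.5 FPKM in high-iron 2, 7 and 8. The part of the erythroid markers in the level of CYCS was not tested.

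NDUFA3, an accessory subunit of complex I on chromosome 6 (56018221 to 56021318, minus strand), had 5.68, 5.36 and 5.24 FPKM in low-iron 2, 3 and 7, 3.92, 3.28 and 2.26 FPKM in control 4, 5 and 6, and 2.20, 4.49 and 5.37 FPKM in high-iron 2, 7 and 8. The low-iron livers were alike and above the control livers, and the high-iron livers spread over the range of both. Low-iron exceeded control by 0.80 on the log2 scale (SE 0.32, unadjusted p = 0.0305, limma adjusted p = 1.00), the largest fold change of any member, and the exact permutation p was 0.1. Without control 6 the difference was 0.58 and the unadjusted limma p was 0.120, and leaving out any of the 3 low-iron libraries also put p above 0.05.

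NDUFV1, on chromosome 2 (4958508 to 4964211, minus strand), encodes the subunit that binds NADH and holds an iron-sulfur cluster. It had 36.1, 32.8 and 43.7 FPKM in low-iron 2, 3 and 7, 28.1, 30.3 and 30.8 FPKM in control 4, 5 and 6, and 25.95, 29.98 and 31.35 FPKM in high-iron 2, 7 and 8. Every low-iron liver was above every other liver, with the highest value in low-iron 7. The log2 fold change was 0.33 against control (SE 0.17, unadjusted p = 0.0822, limma adjusted p = 1.00), and -0.36 for high-iron against low-iron (SE 0.17, unadjusted p = 0.0579, limma adjusted p = 0.713). Without low-iron 7 the first difference was 0.21, and without low-iron 7 and high-iron 2 together, an alternative chosen after seeing the data, the second was -0.17. Read against the median member of each library the differences were 0.19 and -0.18. Members with the smallest p among those lower in the low-iron group were NDUFC2 (-0.24, SE 0.27), NDUFB11 (-0.11, SE 0.26) and NDUFV3 (-0.09, SE 0.22), each within its error.

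Between the high-iron and control groups, members were split, with 22 higher and 30 lower and a median log2 fold change of -0.04, against 0.10 for all genes tested, of which 65.0% were higher. The count of members with an unadjusted limma p under 0.05 was 0 of 52 in either direction, against 4.78% of all genes that were higher and 0.811% that were lower. None reached a fold of 2 at p under 0.05 (1.57% of all genes) or an adjusted p under 0.05 (0.00795% of all genes). In 0 members all high-iron values lay above all control values, as they did for 9.14% of all genes, and in 1 (NDUFA2) they lay below, as for 1.76%. Complexes I and II had medians of -0.01 and -0.12 and complex IV -0.12, with all 4 genes of complex II lower, while complex III had a median of 0.08 with 1 of 2 higher. Under median-of-ratios scaling 9 of 52 (17.3%) were higher and under quantile normalization 14 of 52 (26.9%), with medians of -0.17 and -0.06, as the median of all genes moved by over 0.1 to -0.03 and -0.01. Without high-iron 2 the split became 38 higher and 14 lower, with a median of 0.07 against 0.17 for all genes, and without control 6 it became 30 and 22, with a median of 0.05. Without high-iron 7, 9 were higher and 43 lower, with a median of -0.17, and without control 5, 14 and 38, with a median of -0.12.

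NDUFA2 encodes another accessory subunit of complex I and lies on chromosome 2 (142359000 to 142361126, minus strand). It had 17.4, 13.4 and 19.2 FPKM in low-iron 2, 3 and 7, 16.2, 13.5 and 17.0 FPKM in control 4, 5 and 6, and 11.3, 10.9 and 12.9 FPKM in high-iron 2, 7 and 8. The 3 high-iron livers were the lowest of the 9, and the low-iron and control livers overlapped. High-iron lay below control by a log2 fold change of -0.41 (SE 0.19, unadjusted p = 0.0563, limma adjusted p = 0.900) and below low-iron by -0.50 (SE 0.19, unadjusted p = 0.0238, limma adjusted p = 0.656), with an exact permutation p of 0.1 in both. Leaving out low-iron 2, low-iron 7, high-iron 2 or high-iron 7 put the limma p of the second difference above 0.05, at 0.0554 to 0.0935, and read against the median member of each library the difference was -0.32. In high-iron 7, where the median member was 0.21 above its mean, NDUFA2 had its lowest value of 10.9 FPKM. The smallest p among higher members in this comparison belonged to NDUFB2 (0.36, SE 0.37), COX6C (0.25, SE 0.28) and NDUFA3 (0.28, SE 0.32), and the next among lower ones to NDUFS3 (-0.30, SE 0.20) and SDHD (-0.25, SE 0.18). None of these had an unadjusted p under 0.05 with all 9 libraries. NDUFA3 rested on single high-iron libraries, with a log2 fold change of 0.66 (unadjusted p = 0.0286 in limma) without high-iron 2 and 0.03 without high-iron 8. Without control 5 the value was -0.12 for NDUFB2 and 0.01 for COX6C, and without control 6 it was 0.66 and 0.46.

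Between the high-iron and low-iron groups, 45 of 52 members were lower in the high-iron group and 7 higher, with a median log2 fold change of -0.20, against 0.03 for all genes tested, of which 53.6% were higher. An unadjusted limma p under 0.05 was found for 2 lower members, CYCS and NDUFA2 (3.12% of all genes were lower at this threshold), and for 0 higher ones (4.03% of all genes). None reached a fold of 2 at p under 0.05 (1.54% of all genes), and neither a member nor any other gene (0%) passed an adjusted p of 0.05. In 4 members, CYCS, NDUFA2, NDUFV1 and SDHD, all high-iron values lay below all low-iron values, against 5.13% of all genes, and in 0 above, against 8.11%. The medians were -0.18 in complex I with 33 of 38 lower, -0.25 in complex II with 4 of 4, -0.11 in complex III with 2 of 2 and -0.31 in complex IV with 5 of 7. For 25 of 52 members the group means ran from low-iron as the highest through control to high-iron as the lowest, an order found in 17.9% of all genes. The low-iron and high-iron comparisons share the control libraries, and this order uses each group in turn. The order was counted with all 9 libraries only. All 52 members were above their own mean in low-iron 7 and 51 were below it in high-iron 2.

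Low-iron 7 and high-iron 2 carried this split. Without low-iron 7 the members stood at 22 higher and 30 lower (median -0.04), and without high-iron 2 at 19 higher and 33 lower (median -0.05). With both left out, an alternative chosen after seeing the data, 36 were higher and 16 lower in the high-iron group, with a median of 0.08 against 0.12 for all genes. Without low-iron 3 all 52 were lower, with a median of -0.33 and 6 members at p under 0.05, and without high-iron 7, 50 were lower, with a median of -0.34 and 5 at p under 0.05. Rescaling to TPM, median-of-ratios scaling and quantile normalization left 43, 48 and 43 of 52 lower.

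SDHD, a haem-binding membrane anchor of complex II, had 95.3, 92.2 and 111 FPKM in low-iron 2, 3 and 7, 93.5, 87.8 and 116 FPKM in control 4, 5 and 6, and 75.7, 92.0 and 80.7 FPKM in high-iron 2, 7 and 8. The high-iron livers were below the low-iron ones by as little as 92.0 against 92.2 FPKM, and they overlapped with the control livers. The log2 fold change was -0.26 (SE 0.18, unadjusted p = 0.168, limma adjusted p = 0.811). Among the 7 higher members, the smallest p belonged to NDUFB11 (0.13, SE 0.26), NDUFS6 (0.08, SE 0.25) and NDUFC2 (0.09, SE 0.27).

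**Figure D4:**
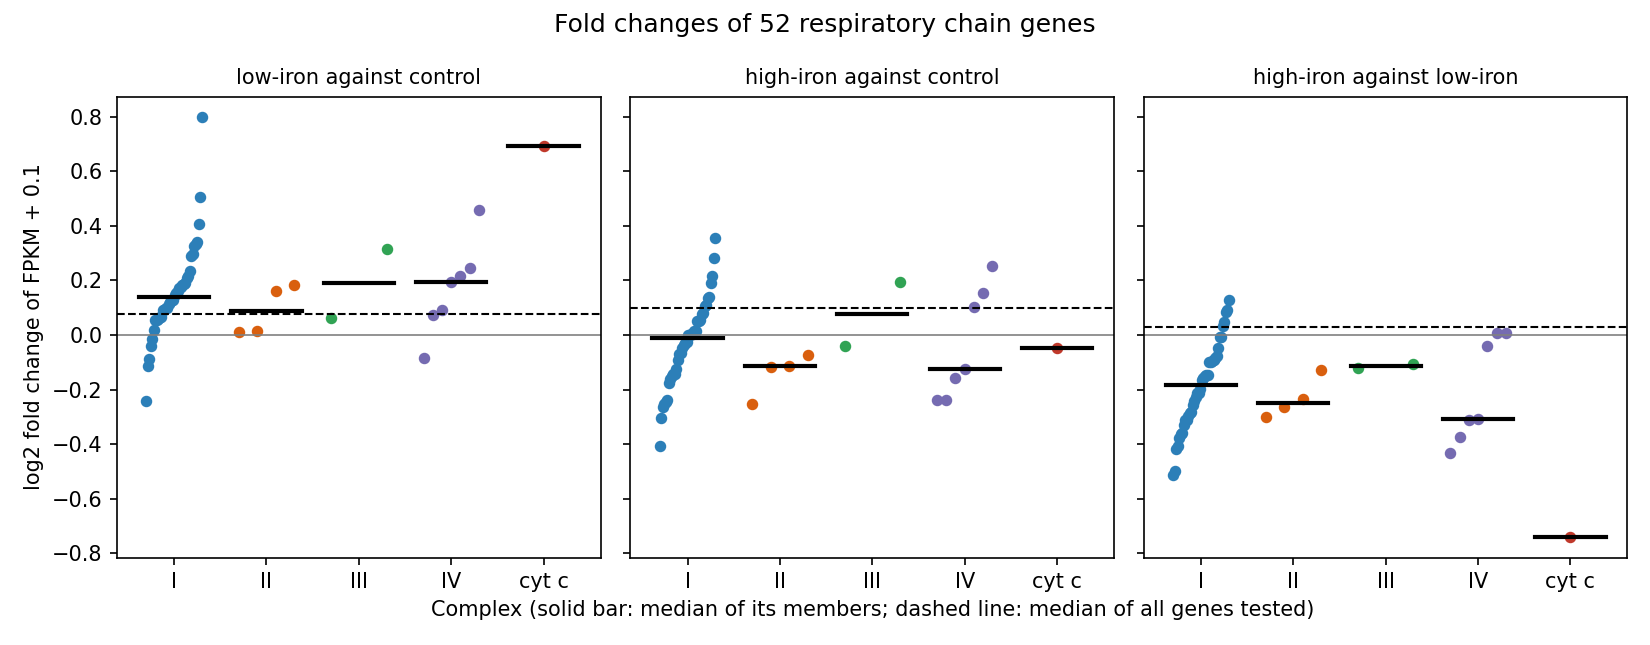
Log2 fold change of FPKM + 0.1 for the 52 tested members (points) by complex in the 3 comparisons, with the median of each complex (solid bars) and of all genes tested (dashed lines). Most members lie within 0.4 of 0, and CYCS stands at 0.69, -0.05 and -0.74 from left to right.

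**Figure D5:**
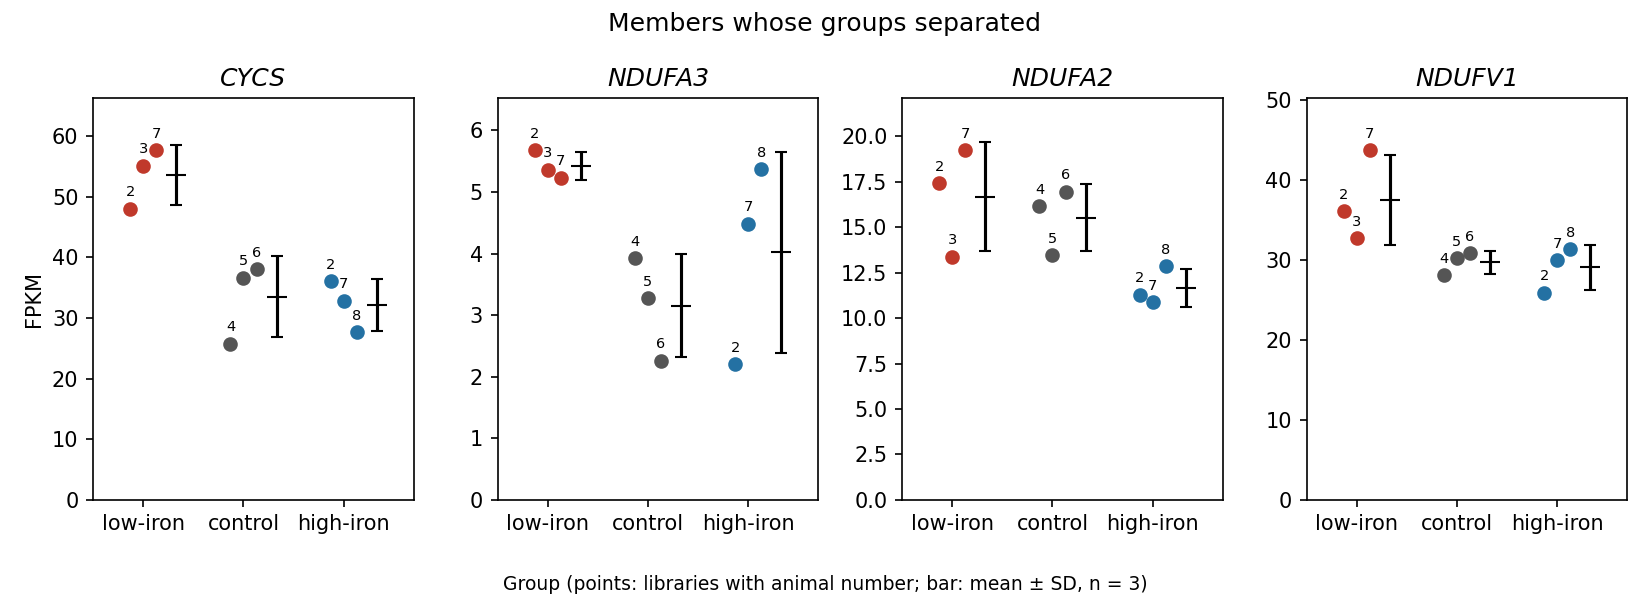
FPKM of CYCS, NDUFA3, NDUFA2 and NDUFV1 in each library (points with animal number) and group mean ± SD (black, n = 3). CYCS is above 48 FPKM in the low-iron livers alone, and NDUFA2 is below 13 FPKM in the high-iron livers alone.

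The members that hold iron were set apart by known cofactor. A symbol was found for 9 of them, namely NDUFS1, NDUFS7, NDUFS8, NDUFV1, NDUFV2 and SDHB with iron-sulfur clusters and SDHC, SDHD and CYCS with haem. In the low-iron group 9 of 9 were higher than in control, with a median log2 fold change of 0.16 against 0.15 for the 43 other tested members. For high-iron against control 2 of 9 were higher, with a median of -0.07 against -0.02, and for high-iron against low-iron 9 of 9 were lower, with a median of -0.26 against -0.17. Of all genes tested, 62.7% were higher in the first and 46.3% lower in the last of these comparisons. Low-iron 7 held the highest value of 6 of the 9 and high-iron 2 the lowest of 7. Without low-iron 7, 6 of 9 were higher with low iron than in control (median 0.09), and without both libraries 5 of 9 were lower with high than with low iron (median -0.06). Apart from CYCS and NDUFV1, their log2 fold changes in the low-iron group ran from 0.01 in SDHD and SDHC to 0.21 in NDUFS7, a core subunit near the quinone site. SDHB had 176, 154.5 and 220 FPKM in the low-iron, 157, 151 and 180 FPKM in the control and 130, 180 and 157 FPKM in the high-iron libraries, and the 3 groups overlapped. NDUFS8, another core iron-sulfur subunit, had its lowest value of 14.1 FPKM in high-iron 2 and its highest of 29.9 FPKM in high-iron 7. NDUFS1 and NDUFV2 ranged over 1.66 and 1.83 times from the lowest to the highest library, and NDUFS1 gave log2 fold changes between -0.09 and 0.10 in the 3 comparisons.

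The subunits with LOC numbers gave similar counts, with no test of likeness. Of 17 genes, 14 passed the filter, and 13 of 14 were higher in the low-iron group than in control (median log2 fold change 0.14), 3 of 14 were higher in the high-iron group (-0.07), and 12 of 14 were lower in the high-iron than in the low-iron group (-0.25). None had an unadjusted limma p under 0.05 in any comparison, while 3.68%, 5.59% and 7.15% of all genes did in the same order. The library medians were 0.48 in low-iron 7 and -0.41 in high-iron 2. Cytochrome c1 (LOC100525869), the haem subunit of complex III that hands electrons to cytochrome c, had 42.8, 40.3 and 61.9 FPKM in the low-iron, 43.6, 34.2 and 53.1 FPKM in the control and 28.8, 51.5 and 41.6 FPKM in the high-iron libraries, with overlap between all groups. The Rieske iron-sulfur protein (LOC100522678) had 24.3, 26.0 and 29.9 FPKM in the low-iron, 22.6, 21.1 and 21.8 FPKM in the control and 17.8, 26.4 and 21.5 FPKM in the high-iron libraries. Its low-iron values were all above the control values, while the high-iron values spanned both. Low-iron values all above the control values were found in 2 of the 14, the Rieske protein and subunit 1 of complex III (LOC100156879), against 6.1% of all genes.

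Of the other genes of the pathway, 13 of the 16 of ATP synthase were higher with low iron than in control and 3 lower (median 0.14), 4 were higher and 12 lower with high iron than in control (-0.12), and 0 were higher and 16 lower with high than with low iron (-0.20). None of the 16 had an unadjusted limma p under 0.05, while 3.68%, 5.59% and 7.15% of all genes did in the same order. The smallest adjusted p was 0.750. Low-iron 7 held the highest value of 13 of the 16 and high-iron 2 the lowest of 8. Of all genes tested, 62.7% and 65.0% were higher in the first 2 comparisons and 46.35% lower in the last. Of 13 citric acid cycle enzymes, 11 were higher and 2 lower with low iron than in control (median 0.19). With high iron 5 were higher and 8 lower than in control (-0.08), and 2 higher and 11 lower than with low iron (-0.28). Low-iron 7 held the highest value of 7 of the 13 and high-iron 2 the lowest of 7. At an unadjusted limma p under 0.05, 0 differed between low-iron and control (2.92% of all genes were higher and 0.763% lower). At this threshold 1 was lower in high-iron than in control (0.811% of all genes were), and 3 were lower in high-iron than in low-iron (IDH3A, OGDH and FH, against 3.12% of all genes). IDH3A, a subunit of NAD-dependent isocitrate dehydrogenase, had 16.5, 14.4 and 15.0 FPKM in the low-iron, 11.7, 13.7 and 14.8 FPKM in the control and 9.19, 10.9 and 10.5 FPKM in the high-iron libraries, a log2 fold change of -0.58 between high-iron and low-iron (SE 0.17, unadjusted p = 0.00570, limma adjusted p = 0.612). All its high-iron values were below those of both other groups.

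Among 29 assembly factors, 3 were higher in the low-iron group than in control at an unadjusted p under 0.05 (COX10, NDUFAF5 and NDUFAF7) and 0 lower, against 2.92% and 0.763% of all genes. COX10, which makes the haem O on the way to the haem A of complex IV, had 5.98, 6.20 and 4.23 FPKM in the low-iron, 3.18, 3.62 and 3.16 FPKM in the control and 3.54, 4.64 and 3.44 FPKM in the high-iron libraries, with a log2 fold change of 0.69 against control (SE 0.22, unadjusted p = 0.00909, limma adjusted p = 1.00). Between high-iron and low-iron 4 assembly factors were lower (NDUFAF4, NDUFAF5, TIMMDC1 and COX10) and 0 higher, against 3.12% and 4.03% of all genes. NDUFAF4, a complex I assembly factor, had 2.30, 3.36 and 4.16 FPKM in the low-iron, 1.90, 3.08 and 1.63 FPKM in the control and 1.04, 1.21 and 1.78 FPKM in the high-iron libraries, a log2 fold change of -1.22 (SE 0.32, unadjusted p = 0.00336, limma adjusted p = 0.573). It was the 1 of 29 assembly factors past a fold of 2 at p under 0.05, as 1.54% of all genes were in this comparison. Its high-iron values lay below all low-iron values, which was the case for 5 of the 29 and for 5.13% of all genes.

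Of 12 tested regulators of mitochondrial genes, 3 were higher in the low-iron group than in control at an unadjusted p under 0.05, namely TFB1M, TFB2M and POLRMT, which serve the methylation of mitochondrial ribosomal RNA (TFB1M) and the transcription of mitochondrial DNA (TFB2M and POLRMT), against 2.92% of all genes. TFB2M had 6.02, 7.55 and 11.2 FPKM in the low-iron, 2.75, 8.01 and 3.41 FPKM in the control and 4.56, 2.64 and 3.72 FPKM in the high-iron libraries. Control 5 lay within the low-iron range of TFB2M, so that these 2 groups overlapped. Between high-iron and low-iron, ESRRA, TFB2M and POLRMT were lower at this threshold (3.12% of all genes), TFB2M by a log2 fold change of -1.14 (SE 0.39, unadjusted p = 0.0136, limma adjusted p = 0.625). POLRMT, the mitochondrial RNA polymerase, had 8.44, 8.64 and 11.05 FPKM in the low-iron, 6.37, 8.30 and 4.96 FPKM in the control and 7.05, 4.997 and 5.497 FPKM in the high-iron libraries, and the low-iron values lay above both other groups. PPARGC1A, the co-activator known as PGC-1α, had log2 fold changes of -0.16, -0.06 and 0.10 in the 3 comparisons, and NRF1 had 0.46, 0.26 and -0.19, none with an unadjusted p under 0.05.

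Markers of other liver cells also differed between the groups. Summed endothelial markers (5 of 5 in the table) were at 81.0 to 117 FPKM in the low-iron, 81.1 to 86.4 in the control and 109 to 123 in the high-iron group. Macrophage markers (5 of 5) were at 144.5 to 181, 136 to 143 and 193 to 215 FPKM in the same order, without overlap between the high-iron and the other groups. By gene, all high-iron values lay above all control values in 4 of the 5 (9.14% of all genes) and above all low-iron values in 3 (8.11%). MARCO overlapped, with 3.44, 2.17 and 7.66 FPKM in the high-iron and 4.62, 6.47 and 1.905 FPKM in the control libraries. The smallest limma adjusted p of the 5 was 0.885 against control and 0.613 against low-iron. The summed hepatocyte markers overlapped at 62540 to 76570, 64250 to 88690 and 60760 to 79520 FPKM, of which ALB alone had 46230 to 74130 FPKM. By gene, all high-iron values lay below all low-iron values in 1 of the 9, against 5.13% of all genes. This was HNF4A, by as little as 63.38 against 63.53 FPKM. Also 1 of the 9 was lower at an unadjusted limma p under 0.05 in this comparison, against 3.12% of all genes. The part of all these cell markers in the member levels was not tested. The sum of FPKM over all genes was between 416922 and 456420 in the 9 libraries, and the 10 highest genes took 25.6% to 29.2% of it. Since FPKM keep no counts, the number of reads under each value is unknown, and the spread between libraries holds animal, preparation and counting differences together.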

How the data were processed

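Liver RNA of 9 Wujin piglets, 3 per group, was sequenced. The authors removed low-quality reads, used HISAT2 for alignment to Sscrofa11.1 and StringTie for assembly, and deposited 1 table of FPKM with a column per library, with no further scaling stated. Counts were not used here, so the DESeq2 test of the study was replaced by a test on log values. Groups follow the series design text and the library titles.

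The table numbers its genes, and each number was read as a gene's place in the gene lines of NCBI annotation release 106. At this reading all 20660 numbered genes fell on protein-coding genes, against 15031 when shifted by 1 in either direction, and the other 5258 genes are new genes without a name. A wrong number would give a wrong symbol, which the check makes unlikely but which the file itself does not settle.

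The 12584 genes averaging at least 0.5 FPKM were taken to log2(FPKM + 0.1) and tested with limma 3.58.1 in R 4.3.3 (a linear fit of 3 groups, contrasts, empirical Bayes with a trend, 6 residual degrees of freedom, Benjamini-Hochberg over all genes tested). The p threshold was 0.05 and the fold threshold 2. Fold changes are differences on that log2 scale, and p-values rest on the spread between libraries of separate animals. Exact permutation tests for single genes used Python 3.11.15 with scipy 1.17.1, numpy 2.4.6 and pandas 2.3.3, and figures matplotlib 3.10.9. The procedure was tested on simulated data. Same-numbered low-iron and high-iron libraries are different piglets.

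Named are the members past both thresholds, the 3 with the smallest p in each direction of a comparison, the highest and lowest of each complex, isoform pairs and iron-binding members. NDUFA1 and the pathway genes given with values fall outside this rule and were named after their values were seen. COX5B and NDUFB3 also fall outside it and were named as examples of promoters with a motif match. Members, gene lists and rules were chosen with earlier results of these data known. The alternatives were pseudocounts of 1 and 0.01, no filter or a mean of at least 1 FPKM, array quality weights, separate fits of each pair of groups, quantile normalization, TPM, median-of-ratios scaling, the replicate block and leaving out each library. Added after seeing the data were leaving out low-iron 7 with high-iron 2 and centring each library on the members.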

Additional observations from a re-analysis of the deposited data

How the results depend on the processing

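In all 3 comparisons the count of respiratory chain genes at a fold of 2 and p under 0.05 stayed at 0 under every alternative run. For low-iron against control, the count at an unadjusted p under 0.05 in limma was 2, and leaving out single libraries gave 1 to 3. For high-iron against control it was 0, and became 1 with no filter, median-of-ratios scaling, quantile normalization, array quality weights and without low-iron 7 and high-iron 2 together. Leaving out single libraries gave 0 to 2. For high-iron against low-iron it was 2, became 4 with array quality weights, and ran from 1 to 6 when single libraries were left out. The median log2 fold change of the members ran from 0.0036 to 0.27, from -0.17 to 0.07 and from -0.34 to -0.04 in these 3 comparisons when single libraries were left out, and the last became 0.085 without low-iron 7 and high-iron 2 together. The cause was not tested. The numbers 2 and 7 occur in the low-iron and the high-iron group, but libraries with the same number did not deviate together (correlations of 0.0183 and 0.0213 over genes), so the numbers are not treated as pairs. With the number as a replicate block the count at p under 0.05 was 2 and the median was -0.32. With 3 libraries a group and no counts, the depth behind single values is unknown, and exact tests could not go below 0.1.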

Other observations

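The mitochondrial ribosomal proteins, which translate the mitochondrially encoded subunits, were 53 higher and 22 lower of 75 tested between low-iron and control (median log2 fold change 0.18), 32 and 43 between high-iron and control (-0.05), and 12 and 63 between high-iron and low-iron (-0.23). An unadjusted limma p under 0.05 was found for 5 higher and 1 lower, for 2 higher and 0 lower, and for 1 higher and 5 lower of them in the same order. Of all genes tested, 2.92% were higher and 0.763% lower at this threshold in the first comparison, 4.78% and 0.811% in the second, and 4.03% and 3.12% in the third. Low-iron 7 held the highest value of 35 of the 75 mitochondrial ribosomal proteins and high-iron 2 the lowest of 39. The cytosolic ribosomal proteins had medians of 0.06, 0.04 and -0.02 over 76 genes, with none at p under 0.05 in the 3 comparisons. TFB1M, named after its values were seen, had 3.39, 3.46 and 3.06 FPKM in the low-iron, 2.42, 2.13 and 2.21 FPKM in the control and 3.59, 3.84 and 4.19 FPKM in the high-iron libraries, so that the control livers were the lowest. Its log2 fold change between high-iron and control was 0.75 (SE 0.18, limma adjusted p = 0.885).

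Lymphocyte markers were low in all livers. The 4 T cell markers summed to 9.15 to 13.2 FPKM in the low-iron, 7.82 to 17.3 in the control and 13.5 to 26.9 in the high-iron group. The 5 B and plasma cell markers summed to 6.05 to 13.8, 11.3 to 24.3 and 15.9 to 30.6 FPKM. All 4 and all 5 were higher in the high-iron than in the low-iron group, with medians of 0.68 and 0.66 on the log2 scale and 1 of each list at an unadjusted p under 0.05, as 4.03% of all genes were. High-iron 8 held the highest value of 3 of the 4 and of 4 of the 5, with median deviations of 1.07 and 0.996. The T cell median was -0.009 in high-iron 7, and the B and plasma cell median was -0.35 in high-iron 2. The bile duct markers in the table, 3 of the 4 listed, summed to 4.07 to 7.43, 2.39 to 8.64 and 5.22 to 7.51 FPKM, with overlap between all groups. Of the 4 fat cell markers, ADIPOQ and LEP were at 0 in all libraries, and the list summed to at most 3.46 FPKM.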
